A study of Homo sapiens with 87 samples.

Results

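The replication-dependent histone genes were read out in poly-A RNA of HAP1 cells that had lost subunits of the BAF complex. They were taken as every symbol that starts with HIST1H, HIST2H, HIST3H or HIST4H and stands in both deposited count tables, which gave 89 of 35438 genes. By type these were 8 genes of the linker histone H1, 22 of H2A, 26 of H2B, 17 of H3 and 16 of H4. By their spelling alone, 14 of the 89 symbols are those of pseudogenes. RefSeq names differ in places: HIST2H2BC, tested below, is named as a pseudogene there (H2BC20P), and HIST2H3PS2 is not (H3-7). HIST2H2BD, also tested, had no match in RefSeq. By cluster, 67 belonged to HIST1, 17 to HIST2, 4 to HIST3 and 1 to HIST4.

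A nucleosome is DNA wrapped around the core histones H2A, H2B, H3 and H4, and H1 binds the DNA between nucleosomes. Replication-dependent histone genes have no introns, are transcribed in S phase with the coactivator NPAT, and give mRNAs that end in a stem-loop, bound by SLBP, in place of a poly-A tail. A minority of them also make polyadenylated mRNA, which is known for H1C, H2AC, H2BC, H2BD, H2BJ and H2BK of the HIST1 cluster and for HIST2H2BE, in differentiating or non-dividing cells above all. Poly-A selection therefore captures few histone mRNAs, and the values below are those of the transcripts that it kept.

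HAP1 is an established human cell line, nearly haploid, of chronic myeloid leukaemia origin. BAF (SWI/SNF) complexes move nucleosomes by means of an ATPase, SMARCA4 or SMARCA2. The knockout table holds 24 knockout (KO) clones, with 3 libraries each, and wild-type (WT) HAP1 cells, also with 3. The 22 genes knocked out were ACTB, ARID1A, ARID1B, ARID2, BCL7A, BCL7B, BCL11A, BCL11B, BRD7, BRD9, DPF1, DPF2, DPF3, PBRM1, PHF10, SMARCA2, SMARCA4, SMARCC1, SMARCC2, SMARCD1, SMARCD2 and SMARCD3. ARID1A (618-10 and 618-3) and SMARCA4 (2878-4 and 2878-6) had 2 clones and each other gene had 1, so that outside these a gene and its clone cannot be told apart. The double-loss table holds 6 groups of 2 libraries: ARID2 KO with SMARCA4 knockdown (KD), SMARCA4 KO with ARID2 KD, WT with both KDs, SMARCA4 KO with control KD, ARID2 KO with control KD and WT with control KD. All groups share the HAP1 background, the same medium and the same library kit. Whether replicate libraries were separate cultures is not given in the labels, so p-values measure only the spread between these libraries.

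Libraries held 14917644 to 29993652 counts in the knockout table and 9144150 to 19789622 in the double-loss table. In 14 of the 24 clones the targeted gene's own mRNA was called lower, and in 0 higher. Of 5 blood-cell marker genes, which the leukaemic origin could have left, 3 never exceeded 3 counts in the knockout table, and the 5 summed to 0.223 to 0.906 CPM per library (CPM being counts scaled to a common library total).

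Because a poly-A tail decides what these libraries contain, the 3′ ends of the 89 genes were read first, from GENCODE v29 transcripts. The histone stem-loop, looked for by a set pattern of letters, was found in annotated transcripts of 26 genes, in 3 spellings. The capitals mark the 8 central bases, which the search required. It also required the GG at the start and the GCC at the end, and held each other base to 1 of 2 letters. The sameness of these bases is therefore not a finding, and the pattern limited the number of spellings.
6 H2A, 9 H2B and 3 H3 genes: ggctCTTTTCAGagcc
5 H4 genes: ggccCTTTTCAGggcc
1 H2A and 2 H2B genes: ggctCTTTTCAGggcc
A poly-A signal, spelled AATAAA or ATTAAA within 40 bases of an annotated transcript end, was found for 26 genes too. Of these 26, 21 passed the low-count filter of the knockout table (80.8%), and of the 63 genes with no such signal 15 did (23.8%). The stem-loop and the tail were not exclusive in the annotation: 18 genes with a stem-loop had a transcript running at least 100 bases past it, and 15 of these 18 were among the 36 genes that passed. The median level of the filtered genes was 0.15 log2 TPM with a signal and -1.11 log2 TPM without one. Neither feature was found in 55 of the 89 genes, among them the 2 with the highest levels, HIST1H2BK and HIST1H1C. The search misses a stem-loop spelled otherwise or lying past an annotated transcript end. A stem-loop or signal not found is therefore not shown to be absent from the mRNA.

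Promoters of 4 genes are shown because their levels or differences lead the results below; each is the 250 bases before the start in RefSeq, on the gene's own strand of GRCh38.p14. HIST1H2BK lies at chr6:27146859-27147108 on the minus strand, HIST1H2AC at chr6:26123922-26124171 on the plus strand, HIST1H1C at chr6:26056471-26056720 on the minus strand and HIST1H4H at chr6:26285535-26285784 on the minus strand. Capitals mark TATAAA (the TATA box, which reads TTTATA on the other strand), CCAAT (bound by NF-Y, with ATTGG on the other strand) and ATTTGCAT (the octamer, bound by OCT1, with ATGCAAAT on the other strand); neighbouring matches can overlap.
HIST1H2BK promoter: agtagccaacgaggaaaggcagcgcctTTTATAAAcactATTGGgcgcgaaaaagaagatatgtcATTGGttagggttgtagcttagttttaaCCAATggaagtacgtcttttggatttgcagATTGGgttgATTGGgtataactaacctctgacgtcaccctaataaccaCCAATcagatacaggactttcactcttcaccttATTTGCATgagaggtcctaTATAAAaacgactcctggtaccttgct
HIST1H2AC promoter: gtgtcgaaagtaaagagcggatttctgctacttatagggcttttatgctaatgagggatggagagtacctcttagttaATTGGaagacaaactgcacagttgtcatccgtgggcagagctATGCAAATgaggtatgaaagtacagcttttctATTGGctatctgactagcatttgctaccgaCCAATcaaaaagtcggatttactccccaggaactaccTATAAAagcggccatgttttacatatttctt
HIST1H1C promoter: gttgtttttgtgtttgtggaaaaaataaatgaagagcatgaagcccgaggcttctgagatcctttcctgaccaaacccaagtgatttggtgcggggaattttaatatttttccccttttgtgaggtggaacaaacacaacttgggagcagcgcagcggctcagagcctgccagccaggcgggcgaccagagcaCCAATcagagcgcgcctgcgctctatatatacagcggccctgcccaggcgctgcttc
HIST1H4H promoter: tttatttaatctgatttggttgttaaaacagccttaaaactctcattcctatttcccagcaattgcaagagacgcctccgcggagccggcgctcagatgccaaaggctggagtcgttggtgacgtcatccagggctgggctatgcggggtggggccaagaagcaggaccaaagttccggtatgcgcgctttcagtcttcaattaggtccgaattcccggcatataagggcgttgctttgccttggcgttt
HIST1H2BK held 3 matches to TATAAA, 6 to CCAAT and 1 to the octamer. HIST1H2AC held 1, 3 and 1 of them, in that order, HIST1H1C held 1 CCAAT alone, and HIST1H4H held none of the 3 words. Over the 61 histone genes with a promoter in the table (250 bases before and 50 after the start), TATAAA stood in 67.2%, against 12% of all 27305 promoters. CCAAT stood in 83.6% of histone promoters, against 35.7% of all promoters, and it was found in every H1, H2A, H2B and H3 promoter but in 3 of 13 for H4. The octamer stood in 11 of 16 H2A and 9 of 13 H2B promoters, in 1 of 13 for H3 and in 0 for H1 and H4, against 1.8% of all promoters. A match is a run of letters and does not show that a factor was bound. A word not found does not show that such a site is absent, since other spellings were not searched.

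Poly-A libraries held little histone mRNA. The 89 genes summed to 71.7 ± 0.58 CPM in WT cells (SD, n = 3). After the low-count filter 36 of the 89 could be tested in the knockout table, namely 2 of H1, 10 of H2A, 12 of H2B, 5 of H3 and 7 of H4, and 28 in the double-loss table (1, 7, 12, 3 and 5 in the same order). The lowest value that the tables list is 1, and 10 genes stood at 1 in all 75 knockout-table libraries. No untested gene exceeded 12 counts in a library of the knockout table or 20 in the double-loss table.

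Levels between genes were compared per length, as the mean of the authors' log2 TPM over libraries. H2B led with HIST1H2BK at 4.26 log2 TPM, followed by HIST2H2BE at 1.57 and HIST1H2BN at 1.04. The linker histone HIST1H1C (H1.2) stood at 2.40 log2 TPM, while HIST1H1E, the other H1 gene that could be tested, stood at -1.43. H2A was led by HIST1H2AC at 2.01 log2 TPM, HIST1H2AG at 1.99 and HIST3H2A at 1.43. H4 reached 0.51 log2 TPM for HIST2H4A and 0.49 for its copy HIST2H4B, with HIST1H4H at 0.40. H3 was lowest of the core types: its highest gene, HIST1H3G, stood at -1.06 log2 TPM, with HIST1H3H at -1.23 and HIST2H3C at -1.39. The highest gene that did not pass the filter was HIST1H4A, at -1.81 log2 TPM. HIST2H4A and HIST2H4B never differed by more than 5 counts in the knockout table, nor HIST2H3A and HIST2H3C by more than 1, so each such pair is near-identical in sequence or counting and its 2 values are not independent. HIST2H2AA3 with HIST2H2AA4 and HIST2H2BC with HIST2H2BD were also taken as copies. Their counts differed by up to 44 and 35 in a library of that table.

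**Figure D1:**
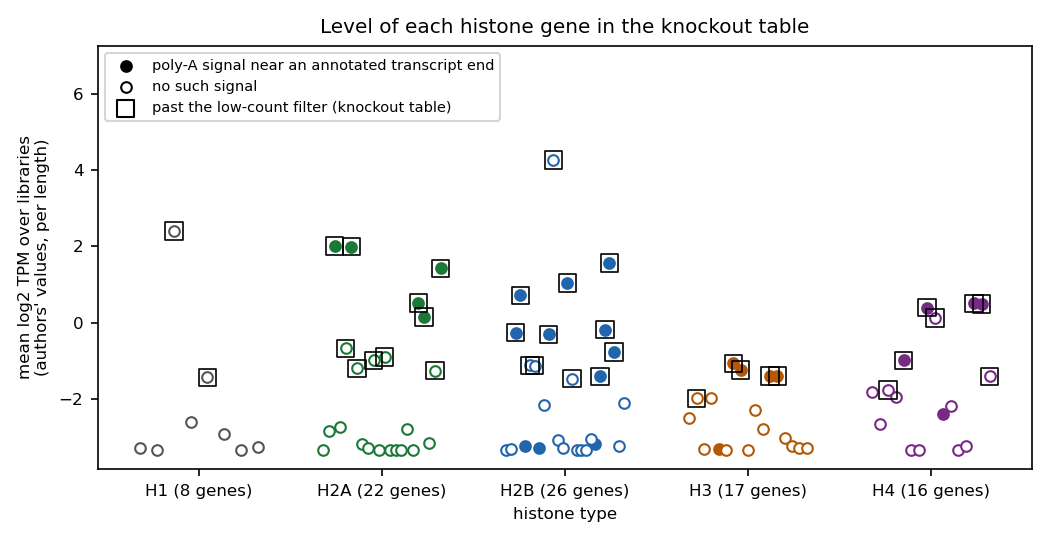
Mean level of the 89 histone genes over libraries, in the authors' log2 TPM (vertical axis), by histone type. Filled points have a poly-A signal near an annotated transcript end, open points have none, and squares mark the 36 genes that passed the low-count filter. HIST1H2BK is highest at 4.26, and no H3 gene is above -1.06.

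The question put to the knockout table was which subunit losses came with more or less histone mRNA. Calls needed an adjusted p of 0.05 or less (edgeR's quasi-likelihood test, Benjamini-Hochberg over all 16159 genes tested) and a log2 fold change of at least 1 in size, KO over WT. Over the 864 pairs of a tested histone gene and a clone, 10 were higher (1.16%, against 2.46% of all gene and clone pairs) and 34 lower (3.94%, against 2.24%). The calls lay in few clones: 2 clones had calls higher, 9 had calls lower and 13 had none. In those 13, between 1 and 9 histone genes had an unadjusted p under 0.05, DESeq2's Wald test called 0, and the share of all genes called was 0.365% to 3.53% higher and 0.823% to 3.56% lower. Among them, all genes were called higher at 1.97% in ARID2 KO, 2.48% in BCL11A KO, 2.28% in BCL7A KO (1.26% lower), 1.25% in PBRM1 KO, 1.5% in PHF10 KO and 1.44% in SMARCD2 KO. All 24 comparisons share the same 3 WT libraries, and in such bulk libraries fewer cells of a kind (such as cells in S phase) and less RNA per cell cannot be told apart. With each clone set against the mean of the other 23 instead, 18 pairs were higher (2.08%, against 2.45%) and 18 lower (2.08%, against 2.19%).

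By gene, 20 of the 36 were called in at least 1 clone against WT (25.3% of all genes) and 16 in none, and 3 were called in both directions. HIST1H2AC, an H2A gene known to give polyadenylated mRNA, had most: higher in 2 clones and lower in 3. HIST2H2BE, an H2B gene of the same kind, was higher in 2 clones and lower in 2. HIST1H2BF (H2B), HIST2H4A and HIST2H4B (H4) were each lower in 4 clones. These counts rest on single shared WT libraries: without WT replicate 1 HIST1H2BF was called in 0 of its 4 clones, and without WT replicate 3 HIST2H4A was called in 2 of 4 and HIST2H4B in 1 of 4. Against the other clones HIST1H2BF was lower in 0, and HIST2H4A and HIST2H4B in 1 each. Of the genes with a poly-A signal 14 of 21 were called in at least 1 clone, and of those without 6 of 15. No H3 gene was called in any clone; the lowest and highest group means of HIST1H3G were 0.308 CPM (SMARCA4 KO 2878-4) and 0.74 CPM (SMARCC1 KO), at a median of 9 counts per library.

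ARID1B KO, the loss of a DNA-binding subunit found in canonical BAF, had the lowest histone mRNA of the 25 groups. The 89 genes summed to 38.8 ± 0.30 CPM in ARID1B KO and 71.7 ± 0.58 CPM in WT (SD, n = 3 each). Of the 36 tested genes 11 fell, against 3.4% of all genes, and 0 rose by the same test, against 3.46%. The median log2 fold change was -0.81 over the histone genes and -0.02 over all genes. By type 1 of 2 H1, 2 of 10 H2A, 4 of 12 H2B, 0 of 5 H3 and 4 of 7 H4 genes fell. In 23 of the 36 every KO library lay below every WT library, which holds for 18.7% of all genes.

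HIST1H2AC had 1.19, 0.738 and 1.18 CPM in ARID1B KO, against 4.93, 4.32 and 5.02 CPM in WT. The groups did not overlap, and the log2 fold change was -2.18 (SE 0.30, edgeR adjusted p = 4.38e-08). The linker gene HIST1H1C had 1.79, 1.9 and 2.22 CPM in ARID1B KO, against 5.04, 6.43 and 5.65 CPM in WT. Again all KO libraries lay below all WT libraries (log2 fold change -1.53, SE 0.18, edgeR adjusted p = 4.53e-10). HIST2H2BE had 1.03, 0.791 and 1.32 CPM in ARID1B KO, against 3.31, 3.64 and 2.89 CPM in WT (log2 fold change -1.63, SE 0.22, edgeR adjusted p = 1.57e-08), also without overlap. Among the H4 genes HIST1H4H had 0.325, 0.422 and 0.52 CPM in ARID1B KO, against 1.46, 2.02 and 1.67 CPM in WT, and its log2 fold change was -1.998 (SE 0.35). HIST2H4A had 0.757, 0.316 and 0.473 CPM in ARID1B KO, against 1.46, 1.57 and 2.35 CPM in WT (log2 fold change -1.80, SE 0.27). These H4 values rest on 6 to 14 counts per KO library, and no KO library reached a WT library. The remaining calls were HIST4H4, HIST1H2BD, HIST2H2BD, HIST1H2BC, HIST2H2AA3 and HIST2H4B, with log2 fold changes between -1.80 and -1.16. Of these, HIST1H2BC (-0.997, edgeR adjusted p = 0.0629) and HIST2H2AA3 (-1.03, adjusted p = 0.0606) lost their calls without ARID1B KO replicate 1, HIST2H2AA3 also without WT replicate 2 (-0.86), and HIST4H4 without ARID1B KO replicate 2 (-1.35, adjusted p = 0.0612); the 5 genes given in full above kept theirs without any single library. HIST1H2BK, the most abundant gene, had 11.3, 13 and 11.3 CPM in ARID1B KO, against 20.4, 20.2 and 18.6 CPM in WT, and at a log2 fold change of -0.73 (edgeR adjusted p = 9.36e-07) it passed the p threshold but not the fold threshold. A list of 4 fibroblast markers summed to 16.7 to 20.2 CPM in ARID1B KO and 22.1 to 27 CPM in WT, with 2 called lower (COL3A1 and THY1) and 0 higher. A list of 7 markers of the lung cell line A549 is called the lung list below. Its genes are AKR1B10, AKR1C1, AKR1C2, ALDH1A1, SFTPB, NKX2-1 and KRT7, chosen for that line and not for lung epithelium in general. They summed to 3.53 to 4.44 CPM in ARID1B KO and 9.67 to 10.4 CPM in WT, with 1 of 6 tested called lower (NKX2-1). In ARID1B KO 1 gene of each list never exceeded 3 counts, and their part in the histone values was not tested.

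BRD7 KO, the loss of a bromodomain subunit found in PBAF, had the highest histone mRNA. The 89 genes summed to 129 ± 17.5 CPM in BRD7 KO and 71.7 ± 0.58 CPM in WT (SD, n = 3 each), and the single BRD7 KO libraries ranged from 114 to 148 CPM. Of the 36 tested genes 7 rose, against 1.62% of all genes, and 0 fell by the same test, against 1.94%; leaving out BRD7 KO replicate 3 left 4 that rose. The median log2 fold change was 0.58 over the histone genes and -0.01 over all genes. In 16 of the 36 every KO library lay above every WT library, which holds for 13.4% of all genes. The genes that rose were 1 of 2 H1, 2 of 10 H2A, 3 of 12 H2B, 0 of 5 H3 and 1 of 7 H4.

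HIST1H2BK had 35.8, 40.8 and 47.9 CPM in BRD7 KO, against 20.4, 20.2 and 18.6 CPM in WT. The groups did not overlap (log2 fold change 1.06, SE 0.11, edgeR adjusted p = 6.32e-11). HIST1H1C had 13.3, 13.5 and 11.8 CPM in BRD7 KO, against 5.04, 6.43 and 5.65 CPM in WT, again without overlap (log2 fold change 1.15, SE 0.16, edgeR adjusted p = 1.44e-07). HIST1H2AC had 9.28, 11.4 and 15.8 CPM in BRD7 KO, against 4.93, 4.32 and 5.02 CPM in WT. It rose by a log2 fold change of 1.34 (SE 0.25, edgeR adjusted p = 8.08e-05), and the spread between the KO libraries was wider than that between the WT libraries. HIST2H2BE, HIST1H2BJ, HIST2H2AA4 and HIST1H4E were the other genes called, with log2 fold changes between 1.04 and 1.29. Without BRD7 KO replicate 3 the log2 fold change was 0.95 for HIST1H2BK, 0.88 for HIST2H2BE and 0.90 for HIST1H4E, short of the fold threshold; HIST2H2BE was at 0.96 without WT replicate 3, and HIST1H4E had an adjusted p of 0.101 without WT replicate 2. HIST1H4H had 2.18, 3.48 and 4.34 CPM in BRD7 KO, against 1.46, 2.02 and 1.67 CPM in WT; its log2 fold change of 0.94 (edgeR adjusted p = 0.0227) missed the fold threshold. The fibroblast list summed to 19.7 to 27.6 CPM in BRD7 KO (COL3A1 higher) and the lung list to 14.8 to 19 CPM (AKR1C1 higher, NKX2-1 lower), and their part was not tested.

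**Figure D2:**
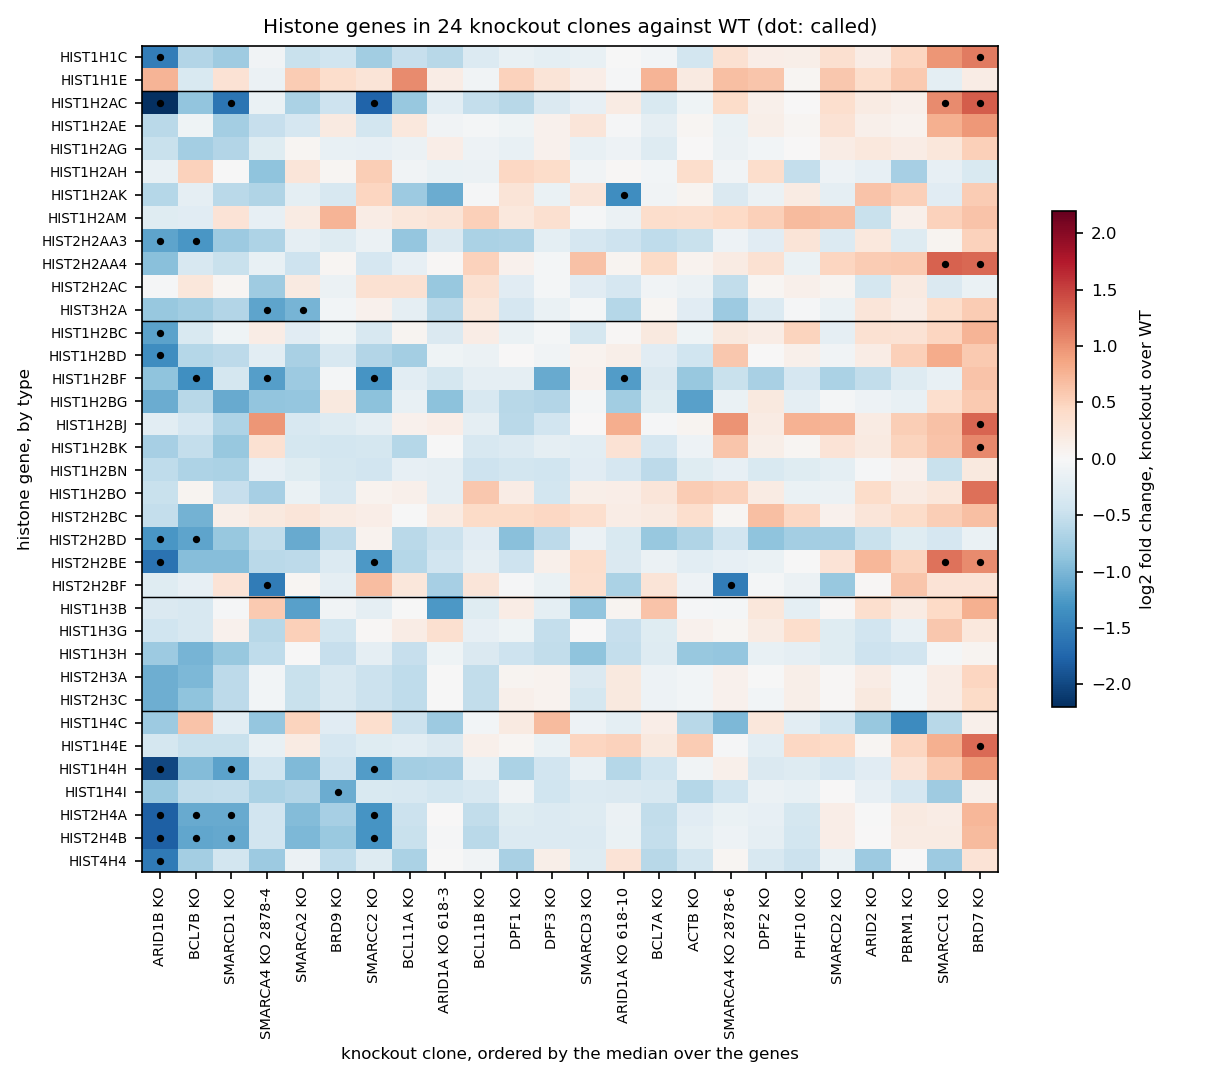
Log2 fold change (colour) of the 36 tested histone genes (rows, by type) in the 24 knockout clones over WT (columns, ordered by the median over the genes). Dots mark calls. ARID1B KO at the left has 11 calls lower and BRD7 KO at the right has 7 calls higher.

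SMARCC1 and SMARCC2 are paralogous scaffold subunits, and the histone sums of their knockouts lay on opposite sides of WT. The SMARCC2 KO libraries are numbered among the double-loss samples, apart from WT and the other clones. Their titles name no clone, and they are not among the log2 TPM columns used. For SMARCC2 KO the knockout and this set of samples cannot be told apart. In SMARCC1 KO 3 histone genes rose, against 3.56% of all genes, and 0 fell, against 2.53%. That count of 3 is too near the share over all genes to be read as a result about histone genes. The 89 genes summed to 104 ± 0.75 CPM in SMARCC1 KO, against 71.7 ± 0.58 CPM in WT (SD, n = 3 each). In SMARCC2 KO 6 fell, against 3.2% of all genes, and 0 rose, against 3.29%, and the sum was 55 ± 2.92 CPM (SD, n = 3). HIST1H2AC had 10.1, 8.24 and 11.1 CPM in SMARCC1 KO and 1, 1.9 and 1.48 CPM in SMARCC2 KO, against 4.93, 4.32 and 5.02 CPM in WT, and none of the 3 groups overlapped. Its log2 fold change was 1.04 (SE 0.25, edgeR adjusted p = 0.00163) in SMARCC1 KO and -1.77 (SE 0.29, edgeR adjusted p = 1.94e-06) in SMARCC2 KO. The first was 0.93 without SMARCC1 KO replicate 3 and 0.98 without WT replicate 2, under the fold threshold. HIST2H2BE had 7.98, 8.05 and 6.56 CPM in SMARCC1 KO and 1.13, 1.69 and 1.42 CPM in SMARCC2 KO, against 3.31, 3.64 and 2.89 CPM in WT. It too separated the 3 groups, with log2 fold changes of 1.19 (SE 0.19) and -1.27 (SE 0.21). HIST2H2AA4, also called in SMARCC1 KO, had 3.47, 3.21 and 0.788 CPM there, against 1.06, 0.944 and 0.994 CPM in WT, so its replicate 3 lay below WT and the groups overlapped. The other genes called in SMARCC2 KO were HIST1H4H, HIST2H4A, HIST2H4B and HIST1H2BF; HIST1H2BF was not called without SMARCC2 KO replicate 1 (adjusted p = 0.0687) or WT replicate 1 (adjusted p = 0.0847), nor HIST2H4B without WT replicate 3 (log2 fold change -0.99). In SMARCC2 KO the log2 fold change of all genes followed the GC content of their transcripts (Spearman's rho 0.476 across 14508 genes). Genes are not independent replicates in that correlation. GC content was taken from the longest annotated transcript of each gene. Its median was 48.9% for the histone genes and 48.5% for all genes, which says nothing about single genes. With the trend removed from each library by GC offsets, an alternative chosen after seeing the data, 6 histone genes fell in SMARCC2 KO (HIST1H2AC at -1.61). What part GC content had in the single calls was not tested. The lung list summed to 7.51 to 12.3 CPM in SMARCC1 KO and 11.3 to 13.3 CPM in SMARCC2 KO, against 9.67 to 10.4 CPM in WT, and the fibroblast list to 23.9 to 29.1 CPM in SMARCC1 KO and 29.1 to 35.1 CPM in SMARCC2 KO, against 22.1 to 27 CPM in WT. Their part was not tested.

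BCL7B KO and SMARCD1 KO had histone sums of 47.6 ± 3.54 and 44.8 ± 1.61 CPM, against 71.7 ± 0.58 CPM in WT (SD, n = 3 each). Of the 36 genes 5 fell in BCL7B KO, against 2.98% of all genes, and 0 rose, against 3.14%, at a median log2 fold change of -0.62, and 3 fell without BCL7B KO replicate 1, without its replicate 2 or without WT replicate 3. The 5 were HIST1H2BF, HIST2H2AA3, HIST2H2BD, HIST2H4A and HIST2H4B, and HIST2H2AA3 had 0.711, 0.727 and 0.812 CPM in BCL7B KO, against 1.68, 2.47 and 1.36 CPM in WT (log2 fold change -1.29, SE 0.35, edgeR adjusted p = 0.00518; without WT replicate 2 it was -0.999, adjusted p = 0.0766). HIST1H2BF and HIST2H2BD lost their calls without BCL7B KO replicate 1, and HIST2H4A and HIST2H4B without its replicate 2. With copies summed to 1 value each, 3 fell. HIST2H2AA3 summed with its copy HIST2H2AA4 was then at -0.88, short of the fold threshold. In SMARCD1 KO 4 fell, against 2.57% of all genes, namely HIST1H2AC, HIST1H4H, HIST2H4A and HIST2H4B, at a median of -0.57. HIST1H2AC had 1.27, 1.33 and 2.15 CPM in SMARCD1 KO, against 4.93, 4.32 and 5.02 CPM in WT (log2 fold change -1.61, SE 0.29, edgeR adjusted p = 1.9e-05), without overlap. HIST2H4A was at -0.995 without SMARCD1 KO replicate 2, and without WT replicate 3 HIST2H4A was at -0.85 and HIST2H4B at -0.83. Every KO library lay below every WT library in 19 of the 36 genes in BCL7B KO (16.5% of all genes) and in 20 in SMARCD1 KO (12.4% of all genes). The lung list summed to 28 to 30.2 CPM in BCL7B KO and 41.8 to 50.7 CPM in SMARCD1 KO, against 9.67 to 10.4 CPM in WT. The fibroblast list summed to 16.6 to 19.2 CPM in BCL7B KO and 36.5 to 43.8 CPM in SMARCD1 KO, against 22.1 to 27 CPM in WT, and the part of these lists in the histone values was not tested.

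**Figure D3:**
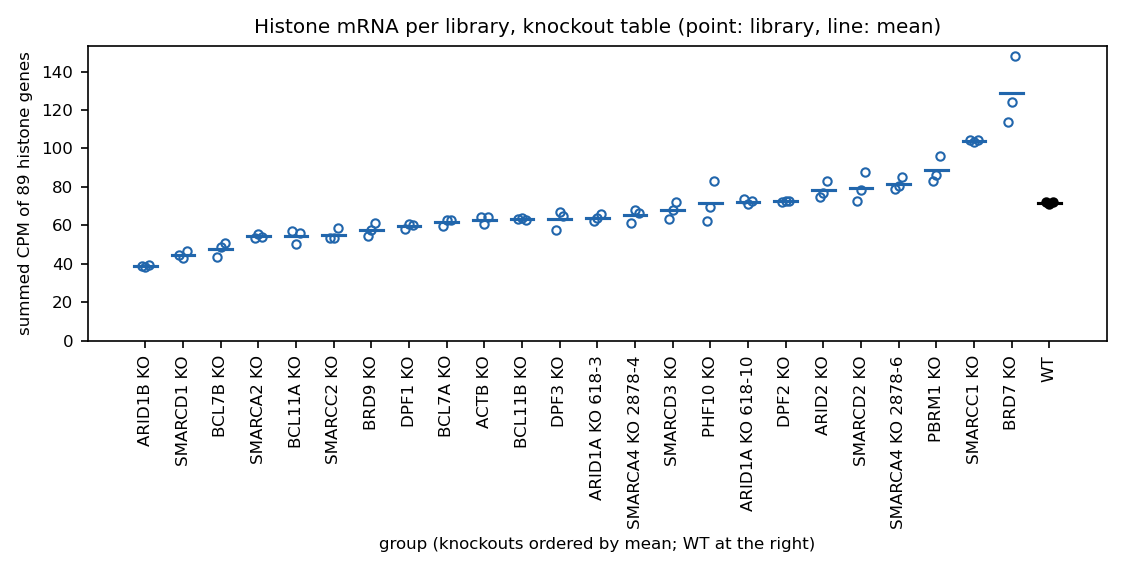
Summed CPM of the 89 histone genes (vertical axis, from 0) in each library of the knockout table, with the knockout groups ordered by their mean and WT at the right. Points are libraries and lines are means of 3. ARID1B KO is lowest at 38.8 CPM, SMARCC1 KO and BRD7 KO are highest at 104 and 129 CPM, and WT is at 71.7 CPM.

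Few histone genes were called in the SMARCA4, SMARCA2, BRD9 and ARID1A clones, and with 1 to 3 of 36 called in a clone these counts are too near the shares over all genes to be read as a result about histone genes. HIST2H2BF, an H2B gene, was called lower in both: it had 0.169, 0.279 and 0.187 CPM in clone 2878-4 and 0.27, 0.198 and 0.182 CPM in clone 2878-6, against 0.56, 0.764 and 0.588 CPM in WT. No KO library reached the lowest WT library, and the log2 fold changes were -1.53 (SE 0.33, edgeR adjusted p = 0.00132) and -1.54 (SE 0.32, edgeR adjusted p = 0.00127), from 3 to 6 counts per KO library. Clone 2878-4 had 3 genes lower in all (5.28% of all genes), with HIST3H2A and HIST1H2BF beside it, and clone 2878-6 had 1 (4.72% of all genes). Neither clone had a histone gene called higher (5.99% of all genes in 2878-4 and 5.53% in 2878-6). The fibroblast list, with 4 of 4 genes called higher in both, summed to 123 to 168 CPM in clone 2878-4 and 101 to 146 CPM in clone 2878-6, against 22.1 to 27 CPM in WT, and its part was not tested. HIST3H2A, an H2A gene outside the main clusters, had 1.41, 1.35 and 1.49 CPM in clone 2878-4 and 1.27, 1.78 and 1.69 CPM in SMARCA2 KO, against 3.75, 2.7 and 3.25 CPM in WT. It was the 1 histone gene called in SMARCA2 KO (1.42% of all genes lower and 0.774% higher; log2 fold change -1.01, SE 0.19, edgeR adjusted p = 0.00012), and both knockouts lay below WT. In SMARCA2 KO it was at -0.90 without SMARCA2 KO replicate 1 and without WT replicate 1. In clone 2878-4 HIST1H2BF was not called without its replicate 2 (adjusted p = 0.0852) or WT replicate 1 (adjusted p = 0.108). BRD9 KO had 1 call lower (1.94% of all genes), in HIST1H4I, with 0.458, 0.96 and 0.6 CPM in BRD9 KO, against 1.29, 1.66 and 1.31 CPM in WT; the call was lost without BRD9 KO replicate 1 (adjusted p = 0.131), without its replicate 3 (0.0522) or without WT replicate 2 (0.0798). ARID1A KO 618-10 had 2 calls lower (2.44% of all genes) and 0 higher (3.84%), HIST1H2AK and HIST1H2BF, at 2 to 7 counts per KO library. HIST1H2AK was not called without replicate 1 (adjusted p = 0.0537) or 2 (0.0523) of that clone or WT replicate 3 (0.182), nor HIST1H2BF without its replicate 2 (0.222) or WT replicate 1 (0.172). ARID1A KO 618-3 had 0 by the same test. Set directly against each other, neither the ARID1A clones nor the SMARCA4 clones had a histone gene called. The 89 genes summed to 72.3 ± 1.32 CPM in ARID1A KO 618-10 and 64 ± 1.66 CPM in 618-3 (SD, n = 3 each). They summed to 65.4 ± 3.52 CPM in SMARCA4 KO 2878-4 and 81.5 ± 3.09 CPM in 2878-6, below and above WT at 71.7 ± 0.58 CPM. The median log2 fold change of 2878-4 over 2878-6 was -0.32 for the histone genes and 0.0013 for all genes. HIST1H1C was higher in 618-10 than in 618-3 (log2 fold change 0.60, edgeR adjusted p = 0.0397), under the fold threshold.

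Divergent pairs gave a comparison within shared DNA. Many H2A and H2B genes start back to back, and 9 such pairs with starts at most 1000 bases apart were found in RefSeq, 8 of them of an H2A and an H2B gene. Genes with no promoter matched, such as HIST1H2BC and HIST1H2AH, could not be paired. In 4 pairs both genes could be tested, and those described here were chosen after their values were seen. The others were HIST1H2AK with HIST1H2BN and HIST1H2AM with HIST1H2BO. Of these genes HIST1H2AK was called lower against WT in 1 clone, and the rest were called in none. HIST1H2BJ and HIST1H2AG start 248 bases apart. HIST1H2BJ had 1.09, 1.87 and 2.29 CPM in BRD7 KO, against 0.672, 0.674 and 0.768 CPM in WT, and rose (log2 fold change 1.29, SE 0.30, edgeR adjusted p = 0.00201). HIST1H2AG had 6.12, 4.73 and 7.46 CPM in BRD7 KO, against 4.2, 3.82 and 4.52 CPM in WT, which did not overlap either, and its log2 fold change of 0.53 missed both thresholds (edgeR adjusted p = 0.0567). HIST2H2BE and HIST2H2AC start 236 bases apart, and HIST2H2BE was called in ARID1B, BRD7, SMARCC1 and SMARCC2 KO. HIST2H2AC had log2 fold changes of -0.03, -0.14, -0.31 and 0.34 in those 4 clones and was called in none, at 6 to 11 counts per WT library. A difference between the genes of a pair was not tested.

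The double-loss table asked what the loss of SMARCA4 together with ARID2, a subunit of PBAF, came with. Histone mRNA was highest in the 3 groups in which both were targeted by knockout or knockdown. How far the knockdowns lowered their targets is not given here, so loss in this table means knockout or knockdown. The 89 genes summed to 184 ± 41.1 CPM in ARID2 KO + SMARCA4 KD, 178 ± 14.8 CPM in SMARCA4 KO + ARID2 KD and 124 ± 10.8 CPM in WT + both KD, with 82.4 ± 7.96 CPM in SMARCA4 KO + control KD, 64.2 ± 3.19 CPM in ARID2 KO + control KD and 55 ± 2.07 CPM in WT + control KD (SD, n = 2 each). By type, H1 summed to 23.3, 21 and 13.9 CPM in the 3 double-loss groups in that order, against 3.91 CPM in WT + control KD. H3 summed to 6, 4.96 and 4.65 CPM in them, against 3.18 CPM in WT + control KD. The lowest listed count of 1 is part of these sums. With 1 subtracted from each count H3 summed to 4.52, 3.77 and 3.77 CPM, against 1.94 CPM. In the same way H1 summed to 22.6, 20.5 and 13.5 CPM, against 3.34 CPM. The fibroblast list summed to 40 to 51.3 CPM, 58.7 to 71.9 CPM and 19.7 to 27.3 CPM in the same 3 groups, against 26.2 to 34.8 CPM in WT + control KD. The lung list summed to 32.3 to 33.2 CPM, 8.58 to 11.9 CPM and 4.23 to 5.76 CPM in these groups, against 5.93 to 9.56 CPM in WT + control KD; it stood at 23 to 24.7 CPM in ARID2 KO + control KD, and 6 of its 7 genes never exceeded 3 counts in ARID2 KO + SMARCA4 KD. The part of both lists was not tested.

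Against WT + control KD, whose 2 libraries all 5 comparisons share, 14 of the 28 tested histone genes rose in ARID2 KO + SMARCA4 KD (4.22% of all genes), at a median log2 fold change of 1.58 where all genes had -0.01. In SMARCA4 KO + ARID2 KD 15 rose (4.34% of all genes), at a median of 1.65. In WT + both KD 4 rose (0.295% of all genes), at a median of 1.13, and in SMARCA4 KO + control KD 3 rose (3.34% of all genes), at a median of 0.29. In ARID2 KO + control KD 0 were called by edgeR (0.411% of all genes higher), 1 had an unadjusted p under 0.05 and DESeq2 called 0. No histone gene fell in any of the 5 comparisons, where the share of all genes that fell was 5.1% in ARID2 KO + SMARCA4 KD, 4.21% in SMARCA4 KO + ARID2 KD, 0.267% in WT + both KD, 2.75% in SMARCA4 KO + control KD and 1.16% in ARID2 KO + control KD. Every double-loss library lay above both WT + control KD libraries for 24 of the 28 genes in ARID2 KO + SMARCA4 KD (28.2% of all genes), 25 in SMARCA4 KO + ARID2 KD (30.1%) and 24 in WT + both KD (21%). The counts depended on single libraries: 7 rose in ARID2 KO + SMARCA4 KD without its replicate 1, and 8 without either WT + control KD library. In WT + both KD 0 rose without its own replicate 1 or without either WT + control KD library. In SMARCA4 KO + control KD 1 rose without its own replicate 1 or WT + control KD replicate 1, and 0 without replicate 2 of either group.

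HIST1H1C had 27 and 17.3 CPM in ARID2 KO + SMARCA4 KD, 17.9 and 21.5 CPM in SMARCA4 KO + ARID2 KD and 13.3 and 12.4 CPM in WT + both KD. It had 6.75 and 9.19 CPM in SMARCA4 KO + control KD, 4.16 and 4.18 CPM in ARID2 KO + control KD and 2.87 and 2.97 CPM in WT + control KD. The 2 groups with a knockout and a knockdown overlapped each other and no other group. Its log2 fold changes were 2.86 (SE 0.29, edgeR adjusted p = 0.000228), 2.71 (SE 0.29, adjusted p = 0.000141) and 2.12 (SE 0.28, adjusted p = 0.0141) in the 3 double-loss groups, and 1.40 (SE 0.28, adjusted p = 0.0103) in SMARCA4 KO + control KD. Its call in WT + both KD was lost without replicate 1 of that group (adjusted p = 0.123) or without either WT + control KD library (0.055 and 0.0908), and its call in SMARCA4 KO + control KD without its replicate 2 (0.0901) or either WT + control KD library (0.0687 and 0.0546).

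HIST1H2BK had 89 and 56.2 CPM in ARID2 KO + SMARCA4 KD, 66.3 and 64.3 CPM in SMARCA4 KO + ARID2 KD and 51.7 and 40.8 CPM in WT + both KD, against 19.4 and 15.6 CPM in WT + control KD. It was called in all 3 groups, with log2 fold changes of 1.99 (SE 0.24), 1.86 (SE 0.24) and 1.39 (SE 0.23), and every double-loss library lay above both WT + control KD libraries. HIST1H4H had 6.03 and 4.27 CPM in ARID2 KO + SMARCA4 KD, 2.94 and 4.74 CPM in SMARCA4 KO + ARID2 KD and 2.73 and 2.12 CPM in WT + both KD, against 0.574 and 0.33 CPM in WT + control KD. Its log2 fold changes of 3.39 (SE 0.44), 2.99 (SE 0.44) and 2.36 (SE 0.44) were called in each, from 9 and 4 counts in WT + control KD. HIST1H2BC was the other gene called in all 3, with 1.58 and 2.26, 2.04 and 2.86, and 1.88 and 1.52 CPM in the 3 double-loss groups in the same order, against 0.319 and 0.247 CPM (5 and 3 counts) in WT + control KD. In WT + both KD the calls of HIST1H2BK, HIST1H4H and HIST1H2BC were lost without its replicate 1 or either WT + control KD library, and those of HIST1H4H and HIST1H2BC also without its replicate 2 (adjusted p = 0.0629 and 0.0564).

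HIST1H2AC had 13.4 and 9.04 CPM in ARID2 KO + SMARCA4 KD and 14.4 and 17.2 CPM in SMARCA4 KO + ARID2 KD, against 2.17 and 0.989 CPM in WT + control KD. The log2 fold changes were 2.73 (SE 0.46, edgeR adjusted p = 0.00334) and 3.25 (SE 0.46, adjusted p = 0.00089). In WT + both KD its 2 libraries stood apart, at 9.96 and 4.85 CPM, and it was not called. HIST2H2BE had 8.07 and 7.11 CPM in ARID2 KO + SMARCA4 KD, 7.14 and 8.58 CPM in SMARCA4 KO + ARID2 KD and 6.11 and 6.47 CPM in WT + both KD, against 1.27 and 2.31 CPM in WT + control KD. It was called in the 2 groups with a knockout, at 2.04 (SE 0.39) and 2.10 (SE 0.39) on the log2 scale, while WT + both KD also lay wholly above WT + control KD. HIST1H2BG had 1.62 and 2.37 CPM in SMARCA4 KO + ARID2 KD, where it was called, and 0.742 and 0.753 CPM in ARID2 KO + SMARCA4 KD, where it was not; both WT + control KD libraries held 3 counts, so no fold is given.

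**Figure D4:**
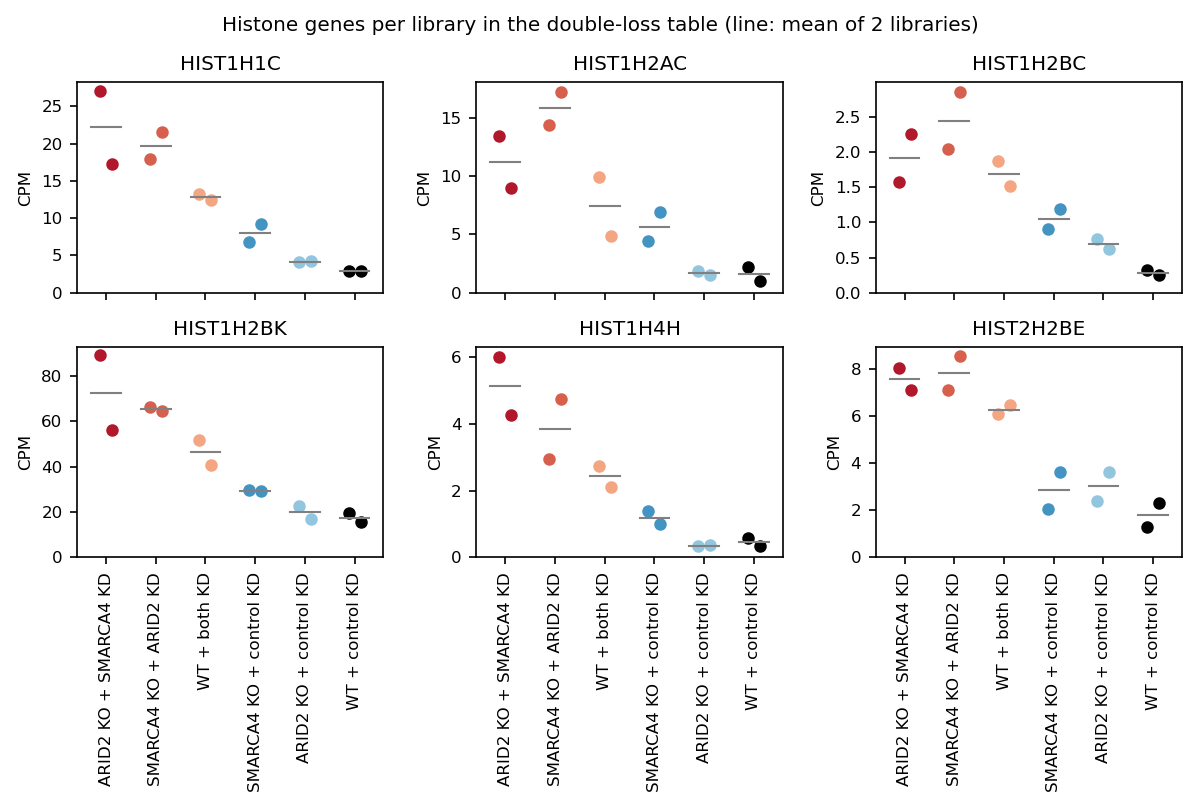
CPM (vertical axes, from 0) of 6 histone genes in each library of the double-loss table, by group, with lines at the mean of 2 libraries. The 3 groups in which both SMARCA4 and ARID2 were targeted stand at the left and WT + control KD at the right. HIST1H1C is at 17.3 to 27 CPM in ARID2 KO + SMARCA4 KD and at 2.87 and 2.97 CPM in WT + control KD.

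Other tested histone genes did not pass the test. The 3 H3 genes were called in no group, although every double-loss library lay above both WT + control KD libraries for each of them: HIST1H3H had a log2 fold change of 1.46 (SE 0.47, edgeR adjusted p = 0.0588) in ARID2 KO + SMARCA4 KD and 0.67 (SE 0.49) in SMARCA4 KO + ARID2 KD, and HIST2H3A had 1.20 and 1.14. HIST1H2AG, which is as abundant as HIST1H2AC in the knockout table, had 6.58 and 7.53 CPM in ARID2 KO + SMARCA4 KD and 5.64 and 6.13 CPM in SMARCA4 KO + ARID2 KD, against 4.4 and 3.79 CPM in WT + control KD. Its log2 fold changes of 0.73 (SE 0.27) and 0.48 (SE 0.27) were not called, although no double-loss library reached down to WT + control KD. HIST1H2BJ, its divergent partner, was called at 2.27 (SE 0.44) and 1.72 (SE 0.45), calls lost without ARID2 KO + SMARCA4 KD replicate 1 (adjusted p = 0.0553) or WT + control KD replicate 2 (0.0502) for the one, and without any 1 of the 4 libraries compared for the other. HIST2H2BF had log2 fold changes of -1.51 in SMARCA4 KO + ARID2 KD (SE 0.54, edgeR adjusted p = 0.102) and -1.52 in SMARCA4 KO + control KD (SE 0.53, edgeR adjusted p = 0.119), which were not called. Of the genes with a poly-A signal 11 of 20 rose in at least 1 double-loss group, and of those without 5 of 8 (6.59% of all genes).

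Within the ARID2 KO background, 7 genes rose with SMARCA4 KD over control KD (1.7% of all genes), at a median log2 fold change of 1.33, with HIST1H4H, HIST1H2AC and HIST1H1C in the lead. HIST1H1C had 27 and 17.3 CPM with SMARCA4 KD, against 4.16 and 4.18 CPM with control KD (log2 fold change 2.34, SE 0.28, edgeR adjusted p = 0.00312), and HIST1H4H had 3 and 4 counts with control KD. The count was 3 without ARID2 KO + SMARCA4 KD replicate 1, 3 without ARID2 KO + control KD replicate 1 and 1, HIST1H1C, without its replicate 2. Within the SMARCA4 KO background 0 genes were called with ARID2 KD over control KD by edgeR (0.0205% of all genes), at a median of 0.90; 15 had an unadjusted p under 0.05 and DESeq2 called 3. HIST1H1C had 17.9 and 21.5 CPM with ARID2 KD, against 6.75 and 9.19 CPM with control KD, and a log2 fold change of 1.31 (SE 0.26, edgeR adjusted p = 0.35). The groups did not overlap, but the difference did not pass the test.

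Whether the joint loss exceeded the sum of the single losses was tested on the log2 scale in the same fit, as each KO + KD group minus both KO + control KD groups plus WT + control KD. For ARID2 KO + SMARCA4 KD 0 histone genes were called (0.5% of all genes higher), at a median of 0.92, and 7 had an unadjusted p under 0.05. For SMARCA4 KO + ARID2 KD 0 were called as well (0.171% of all genes higher), at a median of 0.65, with 7 at an unadjusted p under 0.05. DESeq2 was not run on this contrast. The largest for ARID2 KO + SMARCA4 KD was HIST1H4H, at 2.50 (SE 0.71, edgeR adjusted p = 0.166), and for SMARCA4 KO + ARID2 KD HIST1H2BD had the lowest p, at 1.88 (SE 0.48, edgeR adjusted p = 0.279). A missed threshold does not show that the losses add up.

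**Figure D5:**
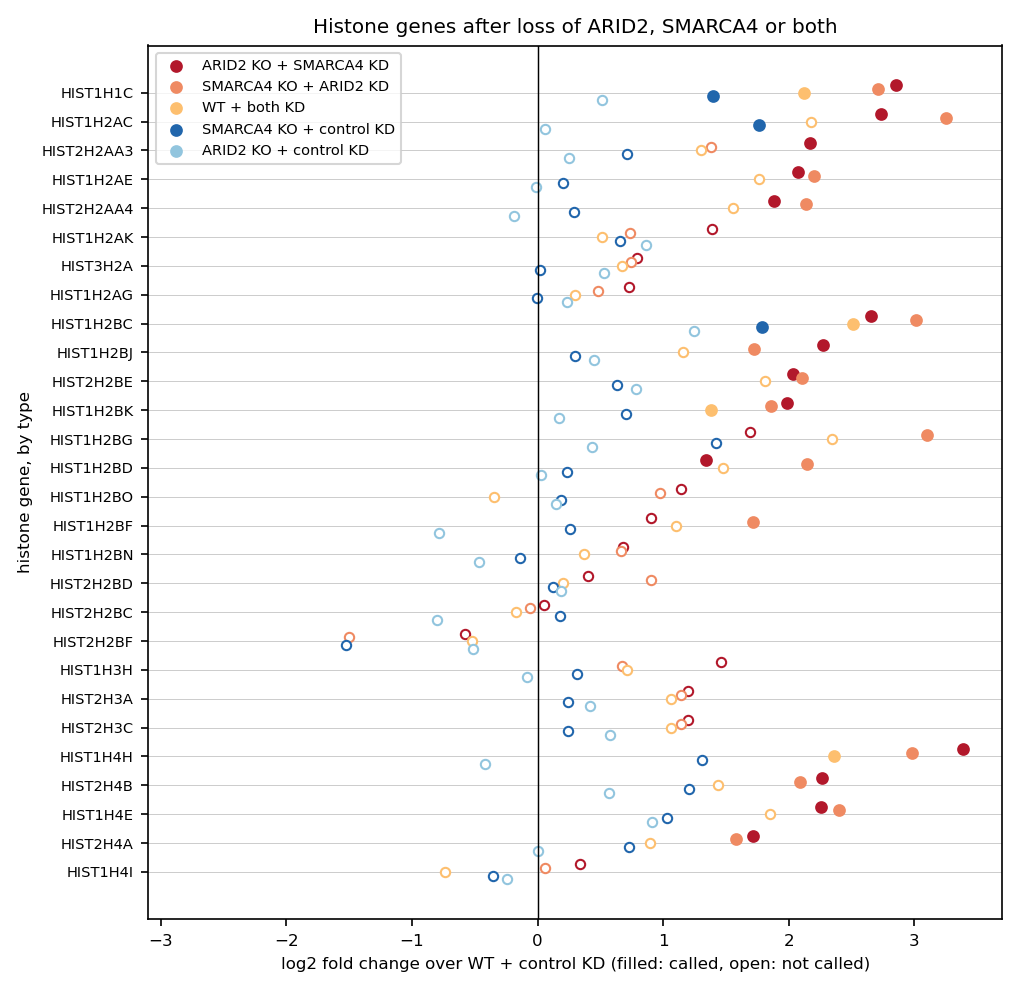
Log2 fold change over WT + control KD (horizontal axis) of the 28 tested histone genes (rows, by type) in the 5 other groups of the double-loss table. Filled points are called and open points are not. The 3 double-loss groups lie mostly to the right of the 2 single-loss groups; HIST1H4H reaches 3.39 in ARID2 KO + SMARCA4 KD, and HIST2H2BF lies left of 0 in all 5.

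SMARCA4 loss was measured in both tables, which were counted and normalized separately. HIST1H1C had log2 fold changes of -0.07 and 0.33 in SMARCA4 KO clones 2878-4 and 2878-6 of the knockout table and 1.40 in SMARCA4 KO + control KD of the double-loss table, each over its own WT group. HIST1H2AC had -0.15 and 0.40 in the clones and 1.76 in SMARCA4 KO + control KD, where its call was lost without replicate 2 of that group (edgeR adjusted p = 0.216), its replicate 1 (0.0503) or WT + control KD replicate 2 (0.198). The difference between the tables was not tested.

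The 10 histone genes set down as known to give polyadenylated mRNA (the 7 named at the start with HIST1H4H, HIST2H2AA3 and HIST4H4) were also counted as a list, which was drawn up with results of these data in view, so nothing is read from its counts. In ARID1B KO 8 of the 10 fell (3.4% of all genes) and in BRD7 KO 5 of the 10 rose (1.62% of all genes). Of the 9 tested in the double-loss table, 9 rose in ARID2 KO + SMARCA4 KD (4.22% of all genes), 8 in SMARCA4 KO + ARID2 KD (4.34%), 4 in WT + both KD (0.295%), 3 in SMARCA4 KO + control KD (3.34%) and 0 in ARID2 KO + control KD (0.411%).

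Few of the genes that serve the histone genes were called. Of 34 DNA replication genes tested, which are co-expressed with histones in S phase, 0 were called in ARID1B KO, at a median log2 fold change of -0.05, and 0 in BRD7 KO, at -0.12. Of 24 genes for histone mRNA processing 0 were called in either clone. SLBP, which binds the stem-loop, averaged 149 ± 6.07 CPM in ARID1B KO and 134 ± 6.58 CPM in BRD7 KO, against 141 ± 2.33 CPM in WT (SD, n = 3 each). NPAT averaged 46.2 ± 1.96 and 46 ± 2.35 CPM in the same clones, against 54.7 ± 3.44 CPM in WT. In the double-loss table SLBP averaged 77.2 ± 12.6 CPM in ARID2 KO + SMARCA4 KD, against 111 ± 8.61 CPM in WT + control KD (SD, n = 2 each), a log2 fold change of -0.57 (SE 0.17, edgeR adjusted p = 0.0464) that missed the fold threshold. Of the 34 DNA replication genes, 0 were called higher in the 3 double-loss groups, and lower were 1 in ARID2 KO + SMARCA4 KD, 0 in SMARCA4 KO + ARID2 KD and 0 in WT + both KD, at median log2 fold changes of -0.20, -0.15 and -0.16 in the same order.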

How the data were processed

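RNA-seq was measured on poly-A-selected, stranded libraries of HAP1 cells, per the labels' protocols. The authors deposited 2 tables of estimated counts per gene (whole numbers, lowest listed value 1) and 1 table of log2 TPM, quantile-normalized by the authors, of which 71 columns were used; 8 columns matched no single labelled sample and were left out. The submitters' processing notes name Trimmomatic, Bowtie, Picard, DESeq2 and the build hg19 (GRCh37), with no versions. The histone genes and the gene lists were chosen with earlier results of these data known. CPM are counts over the library total.

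Counts were fitted with edgeR 4.0.16 (robust quasi-likelihood, TMM scaling, filterByExpr, with a term for each group, all libraries of a table together) in R 4.3.3, and p-values, which come from the deposited counts, were adjusted by Benjamini-Hochberg over all genes tested. Calls needed an adjusted p of 0.05 or less and a log2 fold change of at least 1 in size. DESeq2 1.42.0 and limma 3.58.1 served as alternatives. The edgeR step was tested on simulated counts with known fold changes. A count of 3 was taken as the floor, which is 0.1 to 0.201 CPM in the knockout table and 0.152 to 0.328 CPM in the double-loss table, for counting error only. Named genes were the 3 most abundant of each type, the 8 called in most clones, the 3 largest changes in a contrast and, in the 5 clones with most calls, any called gene; in other lists, the 3 largest called changes and the best-known gene; others (such as HIST1H4A, divergent partners and uncalled genes) were chosen after their values were seen. None of 30 RNAs listed as lacking a poly-A tail is among the symbols of the tables used here. Stem-loops and poly-A signals come from GENCODE v29 transcripts and promoters from RefSeq (GRCh38.p14), where 83 of 89 symbols were matched and 61 had a promoter; none of these coordinates is on the build of the counts. A gene called in the DNA replication list is not reported here by itself.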

Additional observations from a re-analysis of the deposited data

Results flagged for a closer look

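H2AFY2 is a gene of the replacement variant macroH2A2 and not of the replication-dependent set. It was picked out because ARID2 KO + SMARCA4 KD differed from the sum of the single losses in the test of that difference. The reciprocal group, SMARCA4 KO + ARID2 KD, was not picked out by that test. It had 38.9 and 49.6 CPM in ARID2 KO + SMARCA4 KD, 98.7 and 102 CPM in SMARCA4 KO + control KD, 67.4 and 62.6 CPM in ARID2 KO + control KD and 44.5 and 46.2 CPM in WT + control KD. SMARCA4 KO + ARID2 KD had 99.4 and 94.5 CPM, and WT + both KD had 55 and 54 CPM. The value for ARID2 KO + SMARCA4 KD against the sum of the single losses was -1.71 on the log2 scale (SE 0.22, edgeR adjusted p = 0.00321). Groups of 2 or 3 libraries allow no search for single outlying libraries, and no replication-dependent histone gene met the same rule.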

How the results depend on the processing

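Of the 87 calls of a gene in a comparison, 0 were reversed in direction under an alternative. Calls are large by selection, so little else could be found. Direction was not followed for uncalled genes, sums or medians. Dropping the fold threshold raised the counts of histone genes lower to 13 in BCL7B KO and 10 in SMARCD1 KO, those of gene and clone pairs against WT to 23 higher and 70 lower, and those against the other clones to 85 higher and 73 lower. With DESeq2's Wald test 7 were higher in WT + both KD and 3 in SMARCA4 KO + ARID2 KD over SMARCA4 KO + control KD. With a fit of the 2 groups compared alone 2 were lower in SMARCD1 KO, and with copies summed 3 in BCL7B KO. Copies and GC offsets were chosen after seeing the data. The replicate numbers are shared labels only, and the block on them raised the counts higher to 9 in WT + both KD, to 13 in ARID2 KO + SMARCA4 KD over ARID2 KO + control KD, to 2 in SMARCA4 KO + ARID2 KD over SMARCA4 KO + control KD and to 1 for the joint loss beyond the sum in ARID2 KO + SMARCA4 KD; same-numbered libraries deviated together in every pair in 5 of 24 groups of the knockout table and 4 of 5 of the double-loss table. The cause of these shifts was not tested.

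Leaving out 1 library or 1 replicate number at a time gave ranges of 8 to 13 genes lower in ARID1B KO, 2 to 6 in BCL7B KO, 4 to 6 in SMARCC2 KO and 2 to 5 in SMARCD1 KO, 4 to 10 higher in BRD7 KO, and 6 to 12 pairs higher and 22 to 34 lower over all clones. In the double-loss table the ranges were 7 to 14 in ARID2 KO + SMARCA4 KD, 10 to 12 in SMARCA4 KO + ARID2 KD, 0 to 3 in WT + both KD, 0 to 1 in SMARCA4 KO + control KD, 1 to 8 in ARID2 KO + SMARCA4 KD over ARID2 KO + control KD, and 0 to 1 for the joint loss beyond the sum in ARID2 KO + SMARCA4 KD. It stayed at 0 for the same test in SMARCA4 KO + ARID2 KD, for SMARCA4 KO + ARID2 KD over SMARCA4 KO + control KD and for ARID2 KO + control KD. With 1 library left in a group, that library is assumed to vary like the others. Single-library fits were made for WT, for the 11 clones with a call and for the double-loss libraries.

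Of the 87 calls of a gene in a comparison, 32 held under each alternative run for them. Other scaling changed none, DESeq2's test lost 10, fits of 2 groups 11 of 44, limma on log2 TPM 4 of 38, no filter 2 and subtracting 1 from each count 2. Summed CPM of the 89 genes moved by more than the replicate SD in 20 of 31 groups with 1 subtracted and in 23 with tested genes alone. Low counts limit most of these genes: untested ones never exceeded 20 counts, and differences in them were not detectable at this depth.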

Other observations

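Replacement histone variants are made throughout the cell cycle from polyadenylated mRNA. Of 21 listed, 11 could be tested among knockout clones and 10 among double-loss groups, and H2AFY2 (macroH2A2) was the 1 gene called. It averaged 74.4 ± 5.43 CPM in ARID1A KO 618-10, 70.5 ± 2.27 CPM in ARID1A KO 618-3, 80.2 ± 5.60 CPM in SMARCA4 KO 2878-4, 80.7 ± 1.17 CPM in SMARCA4 KO 2878-6 and 74.8 ± 10.8 CPM in SMARCC1 KO, against 33.9 ± 1.44 CPM in WT (SD, n = 3 each), and it was called higher in all 5. It averaged 15.4 ± 0.539 CPM in BCL7B KO, 14.9 ± 1.09 CPM in BRD7 KO and 9.78 ± 0.752 CPM in SMARCA2 KO, where it was called lower, with log2 fold changes of -1.14 (SE 0.09), -1.20 (SE 0.09) and -1.79 (SE 0.10). In the double-loss table it averaged 96.96 ± 3.49 CPM in SMARCA4 KO + ARID2 KD and 100.5 ± 2.67 CPM in SMARCA4 KO + control KD, against 45.3 ± 1.17 CPM in WT + control KD (SD, n = 2 each), and was called higher in both.

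Among the genes that serve histone mRNA, MIF4GD, which links SLBP to translation initiation, was called lower in ACTB KO at a log2 fold change of -1.21, in SMARCA4 KO 2878-6 at -1.29 and in SMARCA4 KO + ARID2 KD at -2.13. CCNE2, a cyclin of the G1 to S transition, was called lower in SMARCA4 KO 2878-4 at -1.20 and in SMARCA4 KO 2878-6 at -1.09. ANP32E, a chaperone that removes H2A.Z, was called lower at -1.03 in ARID2 KO + SMARCA4 KD. None of the other genes of the lists for histone mRNA processing (24 tested), histone locus transcription (13) and histone chaperones (23) was called in a knockout clone or double-loss group over its control. Alternatives were not run for these list genes.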
